A study of Sus scrofa with 9 samples.

Results

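The genes described here are those of proteases that cut the extracellular matrix, of their inhibitors, and of the enzymes that process, hydroxylate and crosslink collagen. They were taken from a list of 56 gene symbols by pairing the gene IDs of the deposited files with symbols, which found 53 of them among 30477 gene IDs. MMP3, CTSK and TIMP2 were not matched and were not analysed here. The cells were porcine embryonic fibroblasts, connective tissue cells of pig embryos grown from thawed lines. Control cultures without insulin gave the RNA of 0 h, and cultures given insulin gave that of 48 h and 72 h, with 3 libraries per time that the submitters describe as biological replicates. All 9 libraries are of the same cell type and carry no genetic change that the labels name. The sources used here state neither the insulin concentration nor the medium. Since cultures without insulin were analysed at 0 h alone, insulin and time in culture cannot be told apart.

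Fibroblasts both lay down and take apart the collagen matrix around them. Procollagen chains are hydroxylated on proline and lysine and folded in the endoplasmic reticulum, trimmed by procollagen proteinases outside the cell, and crosslinked by lysyl oxidases. Matrix metalloproteinases (MMPs), ADAM and ADAMTS proteases and the plasminogen activators cut matrix and cell surface proteins, and tissue inhibitors of metalloproteinases (TIMPs) and serpins hold them back. Several MMPs are made as inactive precursors, so a transcript level is not an activity.

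Levels are FPKM, fragments divided by gene length and by library size, as the authors deposited them, so genes can be compared per length. FPKM summed to between 487858 and 497665 per library at 0 h, between 524992 and 563656 at 48 h and between 505022 and 525471 at 72 h, and the read depth is unknown. The 10 matched fibroblast markers all reached an FPKM of 1, and their summed level was 20125 to 21016 FPKM at 0 h, 18855 to 19472 at 48 h and 20421 to 21043 at 72 h. That sum rests on COL1A1, COL1A2 and VIM, while 6 of the 10 were called higher and 3 lower at 48 h, and 7 higher and 1 lower at 72 h. Among all tested genes 27.6% were called higher and 22.4% lower at 48 h, and 23.0% and 22.5% at 72 h. LUM, PDGFRA and DCN were at 1.84 ± 0.07, 1.83 ± 0.13 and 1.41 ± 0.06 at 72 h against 0 h on the log2(FPKM + 1) scale, and their part in the results was not tested. At 0 in all 9 libraries were 2 of 8 matched macrophage markers (PTPRC and C1QA) and 3 of 5 neutrophil markers (CSF3R, MPO and S100A8). So were 3 of 6 osteoclast markers (CALCR, DCSTAMP and OCSTAMP) and 1 of 6 endothelial markers (CDH5). An FPKM of 1 was reached by 1 macrophage marker, 2 endothelial markers and 0 of the neutrophil and osteoclast ones. The 1 tested macrophage marker was called higher, at 0.82 at 48 h and 0.83 at 72 h against 0 h. Of the 2 tested endothelial markers 1 was lower and 0 higher at both times. Of the 10 markers of pericytes and smooth muscle 6 reached an FPKM of 1, and that list summed to 2334 to 2353 FPKM at 0 h, 1528 to 1704 at 48 h and 1417 to 1749 at 72 h. Summed levels at 0 h, 48 h and 72 h were 1.54 to 2.31, 3.97 to 5.15 and 3.69 to 5.39 FPKM for 8 macrophage markers, 6.46 to 6.76, 2.41 to 2.58 and 2.1 to 3.29 for 6 endothelial and 5.56 to 6.77, 12.2 to 13.2 and 9.11 to 10.4 for 4 epithelial ones. The part of these lists in the results was not tested.

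Genes that reached an FPKM of 1 in at least 3 libraries were tested, 11063 in all, among them 49 of the 53 matched genes. A gene was called at an adjusted p below 0.05 in limma, and changes are differences of log2(FPKM + 1) ± SE with n = 3 per time. At 48 h against 0 h 19 of the 49 were higher and 15 lower, that is 38.8% and 30.6%, where 27.6% and 22.4% of all tested genes were higher and lower. At 72 h against 0 h 24 were higher and 10 lower (49.0% and 20.4%), beside 23.0% and 22.5% of all tested genes. At 72 h against 48 h 19 were higher and 3 lower (38.8% and 6.12%), beside 9.17% and 16.3%. The median log2 change of the 49 was 0.08, 0.19 and 0.13 in the 3 comparisons, and that of all tested genes 0.02, -0.01 and -0.03. Libraries of the 2 times compared did not overlap for 75.5%, 81.6% and 49.0% of the 49. For all tested genes these shares were 60%, 58.6% and 38.9%, so a lack of overlap is common in these data. Rescaling the libraries to equal FPKM sums moved the median of all tested genes at 48 h by -0.12, with 1959 of them higher and 3691 lower in place of 3048 and 2476. The 49 then had a median of -0.06 at 48 h, with 18 higher and 20 lower. ADAMTS5 passed the filter through its 72 h libraries alone and so had to differ, and without it the counts higher were 18, 23 and 18. Both comparisons with 0 h share the 0 h libraries, and in them 16 genes were higher at both times, 10 lower at both and 1, ANPEP, lower at 48 h and higher at 72 h. Of all tested genes 49.9% were called at 48 h and 45.5% at 72 h. The share called alike at both times was not computed, so these numbers cannot be read as particular to the 49. In bulk RNA, fewer cells that express a gene and less of its RNA per cell cannot be told apart.

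**Figure D1:**
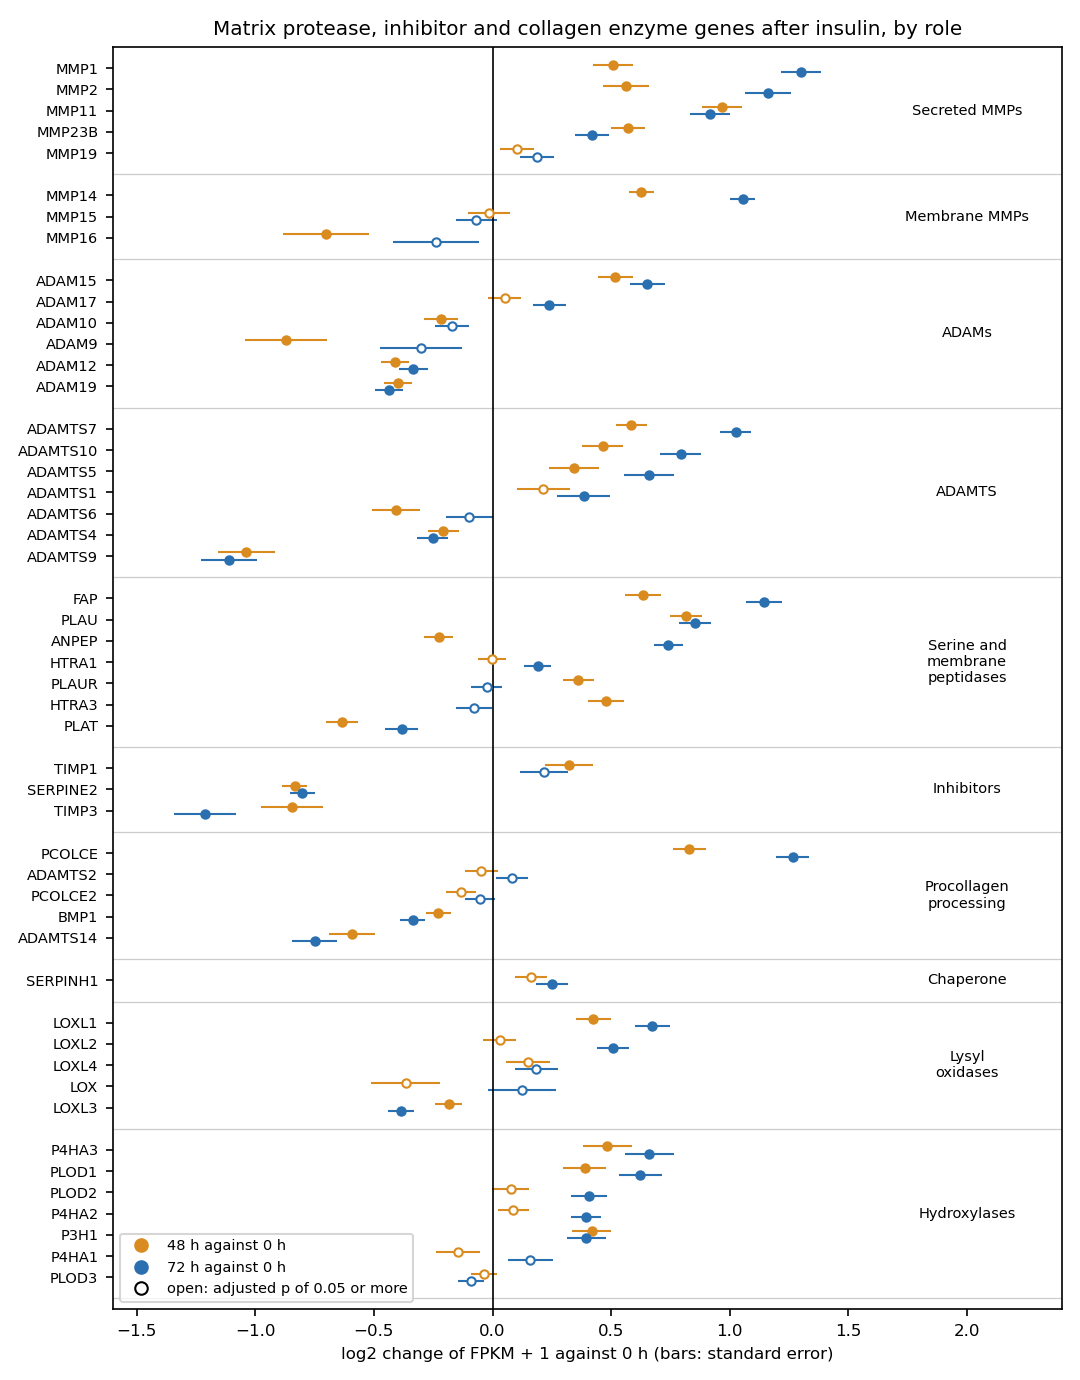
Log2 change of FPKM + 1 against 0 h for the 49 tested genes, grouped by role, with standard errors; orange is 48 h, blue is 72 h, and open points have an adjusted p of 0.05 or more. MMP1, MMP2, MMP14, FAP and PCOLCE lie furthest to the right at 72 h, and TIMP3 and ADAMTS9 furthest to the left.

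Among secreted MMPs, MMP1, MMP2, MMP11 and MMP23B were higher at both 48 h and 72 h, and MMP1 and MMP2 were higher again at 72 h than at 48 h. MMP2, the gelatinase that cuts denatured and basement membrane collagen, had 265, 253 and 239 FPKM at 0 h, 386, 376 and 358 at 48 h and 508, 674 and 527 at 72 h. Every library of a later time lay above every library of an earlier one, and replicate 2 of 72 h stood above the other 72 h libraries. The log2 change was 0.56 ± 0.10 at 48 h (limma adjusted p = 0.000885) and 1.16 ± 0.10 at 72 h (adjusted p = 3.73e-06). MMP1, the interstitial collagenase that makes the first cut in fibrillar collagen, had 14.5, 13.7 and 12.8 FPKM at 0 h, 20.04, 18.8 and 20.7 at 48 h and 31.7, 39.4 and 34.2 at 72 h. Its groups did not overlap either, and its change of 1.30 ± 0.08 at 72 h was the highest of the 49 genes on the log2(FPKM + 1) scale. With a pseudocount of 0.1 it was 1.35, below ADAMTS5 at 1.42. At 48 h the change of MMP1 was 0.51 ± 0.08, or 0.32 with a trend on gene span removed. MMP1 lies on chromosome 9, 33411738 to 33420205 of Sscrofa11.1, and MMP2 on chromosome 6, 30059247 to 30087031.

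MMP11, an MMP that furin activates before secretion, had 8.1, 8.88 and 8.45 FPKM at 0 h, 19.9, 17.5 and 15.4 at 48 h and 16.6, 17.1 and 16.9 at 72 h. All 6 later libraries lay above all 0 h libraries, while the 48 h and 72 h values overlapped, and the changes were 0.97 ± 0.09 and 0.92 ± 0.09. MMP23B had 30.6, 29.7 and 30.5 FPKM at 0 h, 49.8, 45.3 and 41.6 at 48 h and 42.6, 41.6 and 38.2 at 72 h. Its changes were 0.57 ± 0.07 and 0.42 ± 0.07, or 0.25 and 0.27 with the gene span trend removed. MMP19 did not pass the test, with 29.1 ± 2.49 FPKM at 0 h, 31.3 ± 1.09 at 48 h and 33.3 ± 1.88 at 72 h (adjusted p = 0.0535 at 72 h). It did at 72 h without 0 h replicate 2 (0.25, adjusted p = 0.0272). The gelatinase MMP9 and the collagenase MMP13 stayed below the filter. MMP9 reached at most 0.42 FPKM, in a 48 h library, and MMP13 at most 0.1 FPKM, in a 0 h library.

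MMP14, the membrane-anchored collagenase that activates the MMP2 precursor at the cell surface, was the most abundant matched MMP of the list at each time by mean FPKM. It had 289, 289.7 and 282 FPKM at 0 h, 434, 465 and 433 at 48 h and 600.2, 615 and 577 at 72 h. The 3 times did not overlap and the libraries of a time lay close together, with log2 changes of 0.63 ± 0.05 at 48 h (adjusted p = 9.1e-06) and 1.06 ± 0.05 at 72 h (adjusted p = 7.77e-08). The other membrane-type genes did not share that course. MMP15 had 10.9 ± 0.841 FPKM at 0 h, 10.7 ± 0.367 at 48 h and 10.3 ± 1.24 at 72 h and passed no test. MMP16 had 6.07, 6.58 and 6.32 FPKM at 0 h, 2.29, 3.63 and 4.98 at 48 h and 5.43, 4.3 and 5.99 at 72 h. All 48 h libraries of MMP16 were below 0 h (-0.70 ± 0.18, adjusted p = 0.00868), but they had a coefficient of variation of 37.0%, and at 72 h the change was -0.24 ± 0.18 (adjusted p = 0.307). MMP2 and MMP14 together held most of the summed FPKM of the matched MMPs of the list, a sum without MMP3. The share of MMP14 in that sum was 44.4, 45 and 45.5% at 0 h, 45.5, 48.1 and 47.2% at 48 h and 48.1, 42.8 and 46.4% at 72 h. That of MMP2 was 40.7, 39.4 and 38.5% at 0 h, 40.4, 38.9 and 39.01% at 48 h and 40.7, 46.9 and 42.4% at 72 h.

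**Figure D2:**
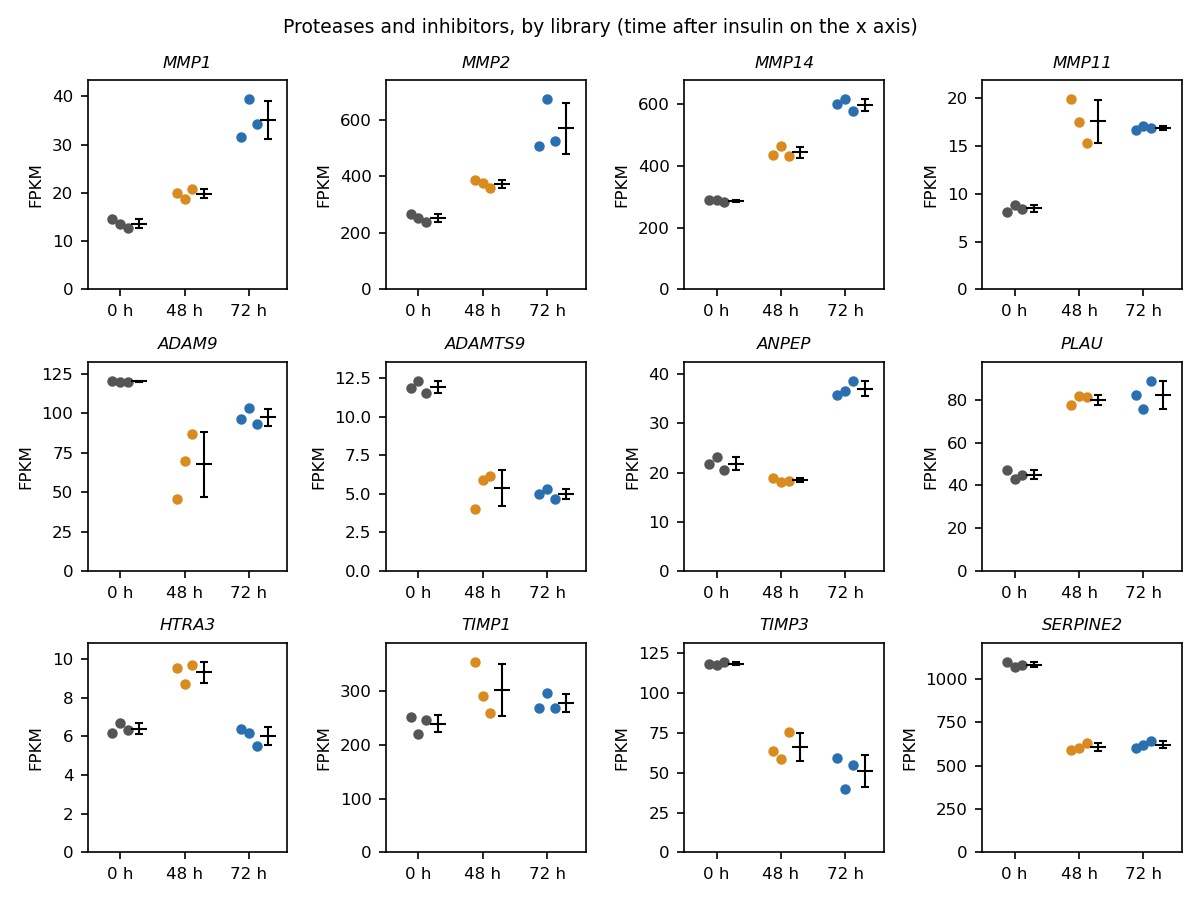
FPKM in each library at 0 h, 48 h and 72 h for 12 protease and inhibitor genes; points are libraries and the bar beside them is the mean ± SD (n = 3). MMP1, MMP2 and MMP14 are higher at each later time, TIMP3 and SERPINE2 are lower at 48 h and 72 h, and ADAM9 and TIMP1 are spread widely at 48 h.

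Among the inhibitors, TIMP3 and SERPINE2 were lower at both times and TIMP1 was not. TIMP3, an inhibitor that binds to the matrix and acts on MMPs, ADAMs and ADAMTS proteases, had 118, 118 and 119 FPKM at 0 h, 63.3, 58.7 and 75.8 at 48 h and 59.1, 40 and 54.7 at 72 h. No later library reached the 0 h level, and the changes were -0.84 ± 0.13 at 48 h (adjusted p = 0.000483) and -1.21 ± 0.13 at 72 h (adjusted p = 2.88e-05), the lowest of the 49 genes on that scale. With a pseudocount of 0.1 the 72 h change was -1.23, above ADAMTS9 (-1.24) and ADAMTS14 (-1.23). The difference between 72 h and 48 h was -0.37 ± 0.13 (adjusted p = 0.0606). It passed without 72 h replicate 1 (adjusted p = 0.0377) and with the replicate number as a block (adjusted p = 0.0336). SERPINE2, a serpin that inhibits thrombin and both plasminogen activators, had the highest mean of the whole group at each time, at 72 h within the spread of SERPINH1 and MMP14. Its levels were 1096, 1069 and 1080.3 FPKM at 0 h, 591, 599 and 630.4 at 48 h and 602, 616 and 642 at 72 h. All 6 later libraries lay close together and far below 0 h (-0.83 ± 0.05 and -0.80 ± 0.05, adjusted p = 1.85e-06 and 5.86e-07). The summed level of pericyte and smooth muscle markers also fell to 1528 to 1704 FPKM at 48 h, against 2334 to 2353 FPKM at 0 h, and its part in the falls of TIMP3 and SERPINE2 was not tested.

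TIMP1, a secreted inhibitor of most MMPs, had 251, 221 and 245 FPKM at 0 h, 353, 291 and 259 at 48 h and 268, 296 and 269 at 72 h. Its 48 h libraries ranged down to just above the highest 0 h library, and the change of 0.32 ± 0.10 (adjusted p = 0.0226) was not called under quantile normalization (0.11), at equal FPKM sums (0.19), with sums over protein-coding genes equal (0.21), without 0 h replicate 2 (0.27), without 48 h replicate 1 (0.20), without a filter or with the gene span trend removed (0.02). At 72 h it was 0.22 ± 0.10 (adjusted p = 0.108), and it was called without 48 h replicate 1 (adjusted p = 0.0282). TIMP4 was below the filter, with 0.24, 0.13 and 0.3 FPKM at 0 h, 0.29, 0.31 and 0.32 at 48 h and 0.14, 0.2 and 0.13 at 72 h.

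Ratios taken within a library do not depend on its scaling. The ratio of MMP14 to TIMP3 was 2.44, 2.46 and 2.36 at 0 h, 6.86, 7.92 and 5.71 at 48 h and 10.2, 15.4 and 10.5 at 72 h. That of MMP2 to TIMP3 was 2.24, 2.16 and 2.002 at 0 h, 6.09, 6.41 and 4.72 at 48 h and 8.61, 16.8 and 9.63 at 72 h. Both ratios separated the 3 times without overlap, and replicate 2 of 72 h was the highest library in each. Against TIMP1, MMP2 stood apart at 72 h only, with ratios of 1.06, 1.15 and 0.975 at 0 h, 1.09, 1.29 and 1.38 at 48 h and 1.899, 2.27 and 1.96 at 72 h.

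**Figure D3:**
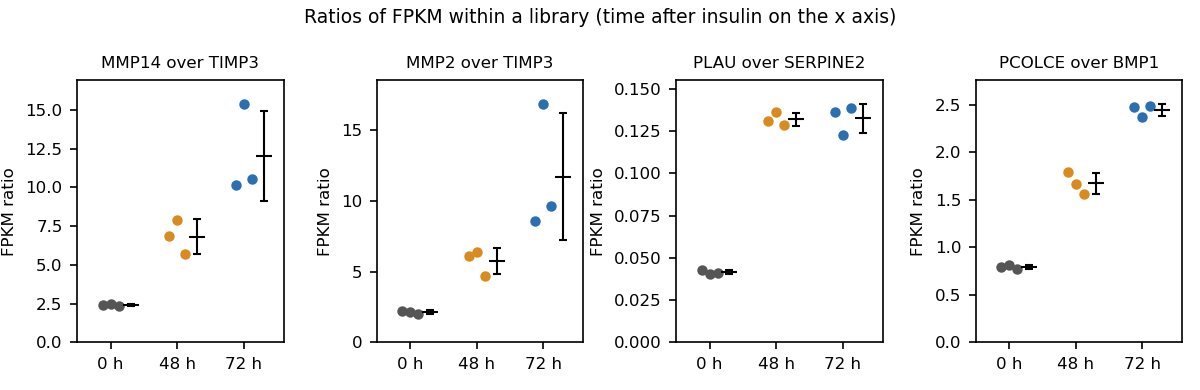
Ratio of FPKM between 2 genes of the same library at 0 h, 48 h and 72 h; points are libraries and the bar beside them is the mean ± SD (n = 3). The ratios of MMP14 and MMP2 to TIMP3 and of PCOLCE to BMP1 are higher at each later time, and that of PLAU to SERPINE2 is about level between 48 h and 72 h.

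Of the 6 ADAM genes, which encode membrane proteases that shed proteins from the cell surface, 4 were lower and 1 higher at 48 h, and 2 lower and 2 higher at 72 h. The shares of all tested genes were 22.4% lower and 27.6% higher at 48 h, and 22.5% and 23.0% at 72 h. ADAM19 had 102, 101 and 102 FPKM at 0 h, 72.5, 75.7 and 83.2 at 48 h and 76.3, 75.2 and 73.2 at 72 h. ADAM12 had 45.4, 47.3 and 45.5 FPKM at 0 h, 32.5, 33.9 and 36.9 at 48 h and 36.99, 36.3 and 35.8 at 72 h. Both were lower at 48 h (-0.40 ± 0.06 and -0.41 ± 0.06) and at 72 h (-0.44 ± 0.06 and -0.33 ± 0.06), with no overlap with 0 h. With the gene span trend removed the 48 h changes were -0.26 and -0.24. ADAM15 went the other way, with 8.01, 7.69 and 8.16 FPKM at 0 h, 12.4, 11.9 and 11.2 at 48 h and 11.96, 14.2 and 13.1 at 72 h. Its changes were 0.52 ± 0.07 and 0.65 ± 0.07.

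ADAM9 had 121, 120.1 and 119.9 FPKM at 0 h, 45.8, 70.1 and 87.1 at 48 h and 96.2, 103 and 93.02 at 72 h. The 0 h libraries were within 1 FPKM of each other, whereas the 48 h libraries spanned 45.8 to 87.1 FPKM, all below 0 h (-0.87 ± 0.17, adjusted p = 0.00211). At 72 h the change was -0.30 ± 0.17 (adjusted p = 0.18), although all 72 h libraries were below all 0 h ones. It was called in a fit of the 0 h and 72 h libraries alone (adjusted p = 0.00173) and without 48 h replicate 1 (adjusted p = 0.00921). ADAM10, which cuts Notch and cadherins, had 21.8 ± 0.635 FPKM at 0 h, 18.6 ± 1.41 at 48 h and 19.3 ± 1.31 at 72 h. Its change of -0.22 ± 0.07 at 48 h was not called after leaving out any 0 h library or 48 h replicate 1 or 2, or with the gene span trend removed (-0.07), and was -0.35 at equal FPKM sums. ADAM17, which releases tumour necrosis factor and ligands of the epidermal growth factor receptor, had 23.1 ± 0.159 FPKM at 0 h, 24.02 ± 1.89 at 48 h and 27.5 ± 1.57 at 72 h. Its change of 0.24 ± 0.07 at 72 h was not called at equal FPKM sums (adjusted p = 0.0784), with sums over protein-coding genes equal, or without 0 h replicate 3 or 72 h replicate 1.

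The ADAMTS genes, secreted proteases of proteoglycans and other matrix proteins, went both ways. ADAMTS7, which cuts cartilage oligomeric matrix protein, had 6.05, 5.66 and 5.57 FPKM at 0 h, 9, 9.27 and 9.14 at 48 h and 12.9, 13.3 and 12.03 at 72 h. The 3 times did not overlap, and the changes were 0.59 ± 0.07 and 1.03 ± 0.07 (adjusted p = 4.93e-07 at 72 h). ADAMTS10, which binds to fibrillin microfibrils, had 11.8, 11.8 and 12.1 FPKM at 0 h, 17.3, 17.96 and 15.2 at 48 h and 21.1, 23.9 and 19.1 at 72 h. Its changes were 0.47 ± 0.09 and 0.79 ± 0.09. ADAMTS9, a versican and aggrecan protease, had 11.8, 12.4 and 11.6 FPKM at 0 h, 4.04, 5.89 and 6.18 at 48 h and 4.97, 5.33 and 4.67 at 72 h. All 6 later libraries of ADAMTS9 were below every 0 h library (-1.04 ± 0.12 and -1.11 ± 0.12, adjusted p = 7.35e-05 and 2.78e-05).

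ADAMTS5, the main aggrecanase in mouse cartilage, had 0.43, 0.28 and 0.46 FPKM at 0 h, 0.68, 0.65 and 0.97 at 48 h and 1.09, 1.35 and 1.15 at 72 h, so that an FPKM of 1 was reached at 72 h only. Its change at 72 h was 0.66 ± 0.11 and, with a pseudocount of 0.1 in place of 1, 1.42. The 48 h change, 0.34 ± 0.11, was not called under quantile normalization or without 0 h replicate 2 or 48 h replicate 3. ADAMTS1, which cuts versican, had 2.297 ± 0.0723 FPKM at 0 h, 2.86 ± 0.635 at 48 h and 3.303 ± 0.146 at 72 h. It was called at 72 h (0.38 ± 0.11, adjusted p = 0.0169) but not at 48 h (adjusted p = 0.137, though 0.35 and called without 48 h replicate 1). ADAMTS4, another aggrecanase, was slightly lower at both times, with 6.43 ± 0.272 FPKM at 0 h, 5.44 ± 0.159 at 48 h and 5.24 ± 0.112 at 72 h. Its 48 h call, -0.21 ± 0.07, was lost without 0 h replicate 1 or 2 or 48 h replicate 1 or 2, and was -0.32 at equal FPKM sums and -0.39 with the gene span trend removed. ADAMTS6 had 7.58 ± 0.344 FPKM at 0 h, 5.497 ± 0.726 at 48 h and 7.05 ± 0.863 at 72 h. It was lower at 48 h alone (-0.41 ± 0.10, adjusted p = 0.00723, or -0.24 with the gene span trend removed, beside -0.10 ± 0.10 and adjusted p = 0.459 at 72 h). ADAMTS12 was below the filter, with a mean of 0.343 ± 0.232 FPKM at 0 h, 0.423 ± 0.0681 at 48 h and 0.797 ± 0.12 at 72 h.

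In the plasminogen activator system, the activators went in opposite directions. PLAU, which encodes urokinase, had 47.3, 43.2 and 44.7 FPKM at 0 h, 77.4, 81.7 and 81.2 at 48 h and 82.2, 75.8 and 88.98 at 72 h. PLAT, which encodes tissue plasminogen activator, had 20.3, 21.5 and 23.3 FPKM at 0 h, 13.7, 13.8 and 13.3 at 48 h and 17.5, 15.9 and 15.8 at 72 h. All later libraries of PLAU were above 0 h (0.82 ± 0.07 and 0.85 ± 0.07, adjusted p = 7.79e-06 and 2.6e-06) and all later libraries of PLAT below it (-0.63 ± 0.07 and -0.38 ± 0.07, adjusted p = 4.59e-05 and 0.000984). PLAUR, the receptor that holds urokinase at the cell surface, was higher at 48 h alone, with 79.4 ± 2.63 FPKM at 0 h, 102 ± 8.59 at 48 h and 78 ± 1.63 at 72 h. Its change was 0.36 ± 0.07 at 48 h, 0.20 there under quantile normalization and 0.22 at equal FPKM sums, and -0.03 ± 0.07 at 72 h. At 72 h it differed from 48 h by -0.39 ± 0.07 (adjusted p = 0.00226). The ratio of PLAU to its inhibitor SERPINE2 was 0.0432, 0.0404 and 0.0414 at 0 h, 0.131, 0.136 and 0.129 at 48 h and 0.137, 0.123 and 0.139 at 72 h.

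FAP, a serine protease of activated fibroblasts that cuts gelatin and small peptides, had 6.63, 6.08 and 6.15 FPKM at 0 h, 10.2, 10.8 and 9.98 at 48 h and 14.2, 16.7 and 14.4 at 72 h. The 3 times were apart, with changes of 0.63 ± 0.08 and 1.14 ± 0.08 (adjusted p = 6.76e-07 at 72 h). ANPEP, the membrane aminopeptidase N, had 21.7, 23.1 and 20.6 FPKM at 0 h, 18.9, 18.1 and 18.3 at 48 h and 35.9, 36.6 and 38.7 at 72 h. Its 48 h libraries were the lowest and its 72 h libraries the highest, with changes of -0.23 ± 0.06 (adjusted p = 0.0113, 0.0555 without 0 h replicate 2, and a change of -0.36 at equal FPKM sums) and 0.74 ± 0.06 (adjusted p = 3.97e-06). The difference between 72 h and 48 h, 0.97 ± 0.06 (adjusted p = 6.8e-06), was the largest of the 49 genes. HTRA3, a secreted serine protease, was higher at 48 h alone, with 6.4 ± 0.269 FPKM at 0 h, 9.31 ± 0.529 at 48 h and 6.02 ± 0.45 at 72 h. It was at 0.48 ± 0.07 at 48 h (adjusted p = 0.000507) and at -0.08 ± 0.07 at 72 h (adjusted p = 0.42). HTRA1, its far more abundant relative, had 505 ± 13.1 FPKM at 0 h, 504 ± 25.6 at 48 h and 576 ± 24.9 at 72 h. Its change of 0.19 ± 0.06 at 72 h was 0.07 and not called under quantile normalization, 0.13 at equal FPKM sums (adjusted p = 0.056), and not called without 0 h replicate 2 or 3 or 72 h replicate 1. At equal FPKM sums it was lower at 48 h (-0.14, adjusted p = 0.0462).

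Among the genes that trim procollagen, PCOLCE rose, PCOLCE2 was not called, and proteinase genes fell or were not called. PCOLCE, a secreted protein that speeds the removal of the procollagen C-propeptide, had 64.4, 65 and 59.1 FPKM at 0 h, 123, 111 and 103 at 48 h and 157, 151 and 148 at 72 h. The 3 times did not overlap, with changes of 0.83 ± 0.07 at 48 h (adjusted p = 8.74e-06) and 1.26 ± 0.07 at 72 h (adjusted p = 1.53e-07). BMP1, the proteinase that PCOLCE enhances, had 80.8, 79.3 and 76.3 FPKM at 0 h, 68.6, 66.8 and 66.05 at 48 h and 63.4, 63.8 and 59.5 at 72 h. It was lower at both times (-0.23 ± 0.05 and -0.34 ± 0.05), and at 48 h the size of its fall depended on the scaling, at -0.36 at equal FPKM sums and -0.38 under quantile normalization. The ratio of PCOLCE to BMP1 was 0.796, 0.82 and 0.774 at 0 h, 1.79, 1.67 and 1.57 at 48 h and 2.47, 2.37 and 2.49 at 72 h.

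ADAMTS14, a procollagen N-proteinase, had 2.24, 1.92 and 2.12 FPKM at 0 h, 0.96, 1.12 and 1.08 at 48 h and 1.01, 0.66 and 0.86 at 72 h. Its changes were -0.59 ± 0.10 and -0.75 ± 0.10, and -0.93 and -1.23 with a pseudocount of 0.1. ADAMTS2, the other N-proteinase of the list, passed no test, with 19.8 ± 0.794 FPKM at 0 h, 19.2 ± 1.32 at 48 h and 21.05 ± 1.1 at 72 h. PCOLCE2, a relative of PCOLCE, had 22.02 ± 0.497 FPKM at 0 h, 20 ± 0.48 at 48 h and 21.2 ± 1.43 at 72 h. It was not called (adjusted p = 0.102 at 48 h), but was lower at 48 h at equal FPKM sums (-0.26, adjusted p = 0.00505).

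The lysyl oxidases, which oxidise lysines of collagen and elastin so that crosslinks can form, differed from each other. LOXL1 had 57.8, 60.1 and 57.8 FPKM at 0 h, 80.8, 81.4 and 74.8 at 48 h and 90.4, 106 and 87.01 at 72 h. LOXL2 had 295, 286 and 274 FPKM at 0 h, 269, 309 and 295 at 48 h and 392, 434 and 389.6 at 72 h. LOXL1 was higher at 48 h and 72 h (0.42 ± 0.07 and 0.67 ± 0.07, at 48 h 0.26 under quantile normalization), while LOXL2 was at 0.03 ± 0.07 at 48 h (adjusted p = 0.741) and 0.51 ± 0.07 at 72 h (adjusted p = 0.000142). LOXL3 was lower, with 28.3, 27.6 and 26.7 FPKM at 0 h, 24.6, 23.8 and 23.9 at 48 h and 20.02, 21.2 and 21.3 at 72 h. Its changes were -0.19 ± 0.06 and -0.39 ± 0.06. Its 48 h change was -0.32 at equal FPKM sums and -0.29 with sums over protein-coding genes equal, and it was not called without 0 h replicate 1 or 2 or 48 h replicate 2.

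LOX, the founding member, had 204, 198 and 211 FPKM at 0 h, 119, 168 and 199 at 48 h and 225, 209 and 236 at 72 h. The 48 h libraries ranged from 119 to 199 FPKM and reached into the 0 h range, and the change of -0.37 ± 0.14 was not called (adjusted p = 0.055). It was called without 48 h replicate 3 (-0.53, adjusted p = 0.00508), at equal FPKM sums (-0.50, adjusted p = 0.0249) and with the replicate number as a block (adjusted p = 0.0387). At 72 h LOX was at 0.13 ± 0.14 against 0 h. LOXL4 had 46.5 ± 0.45 FPKM at 0 h, 51.7 ± 2.64 at 48 h and 53.3 ± 7.57 at 72 h. It was not called at either time (adjusted p = 0.197 and 0.124), but was called at 72 h without 72 h replicate 2 (0.30, adjusted p = 0.00389). LOXL2 was the most abundant of the lysyl oxidases in each library, with 46.7, 46.2 and 44.4% of their summed level at 0 h, 49.2, 49.01 and 45.7% at 48 h and 49.8, 53.3 and 49.3% at 72 h. LOX held 32.3, 32.1 and 34.3% at 0 h, 21.8, 26.6 and 30.8% at 48 h and 28.6, 25.6 and 29.9% at 72 h.

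**Figure D4:**
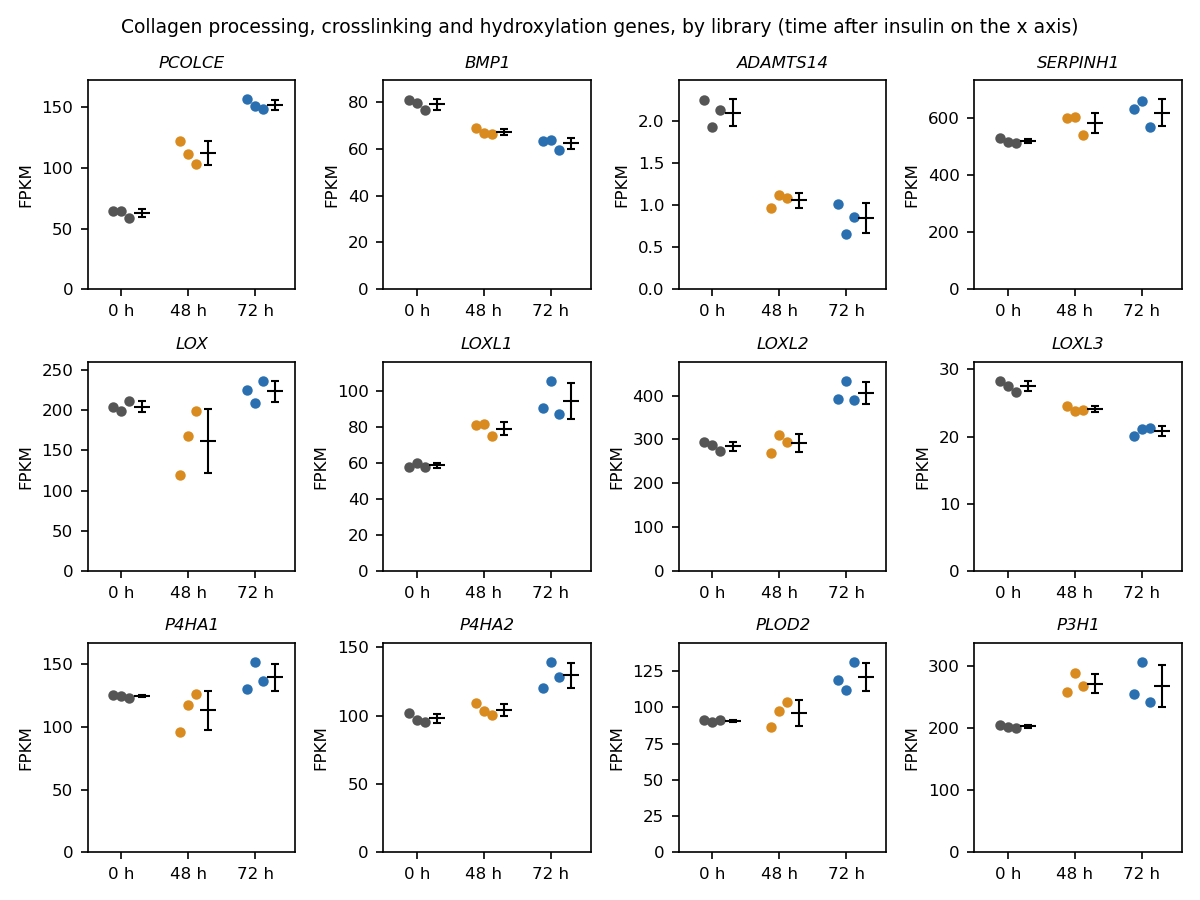
FPKM in each library at 0 h, 48 h and 72 h for 12 genes of procollagen processing, crosslinking and hydroxylation; points are libraries and the bar beside them is the mean ± SD (n = 3). PCOLCE is higher at each later time, BMP1, ADAMTS14 and LOXL3 are lower, LOXL2, P4HA2 and PLOD2 are higher at 72 h, and LOX and P4HA1 are spread at 48 h.

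Of the 7 hydroxylases of collagen 3 were higher at 48 h and 5 at 72 h, and 0 were lower at either time. Among all tested genes 27.6% were higher at 48 h and 23.0% at 72 h, and 22.4% and 22.5% were lower. P4HA3, a catalytic subunit of the prolyl hydroxylase that stabilises the triple helix, had 57.6, 60.2 and 57.6 FPKM at 0 h, 85.2, 84.99 and 76.6 at 48 h and 84.2, 114 and 83.95 at 72 h. PLOD1, a lysyl hydroxylase of the helix, had 98.5, 92.7 and 93.8 FPKM at 0 h, 123, 131 and 121 at 48 h and 136, 174 and 134 at 72 h. Both had no overlap with 0 h and changes of 0.48 ± 0.10 and 0.39 ± 0.09 at 48 h and 0.66 ± 0.10 and 0.62 ± 0.09 at 72 h. Replicate 2 stood above the other 72 h libraries in each. P3H1, which hydroxylates single prolines of collagen as part of a complex, had 206, 202 and 201 FPKM at 0 h, 259, 289 and 268 at 48 h and 255, 307 and 243 at 72 h. It was at 0.42 ± 0.08 and 0.39 ± 0.08. The 48 h change of P3H1 was 0.24 and that of PLOD1 0.24 under quantile normalization.

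PLOD2, the hydroxylase of telopeptide lysines from which stable crosslinks form, had 91.2, 89.7 and 91.2 FPKM at 0 h, 86.3, 97.7 and 104 at 48 h and 119, 112 and 131 at 72 h. At 48 h its range held the 0 h libraries (0.08 ± 0.08, adjusted p = 0.432), and at 72 h all its libraries were higher (0.41 ± 0.08, adjusted p = 0.00149). P4HA2 had the same course, with 98.1 ± 3.23 FPKM at 0 h, 104 ± 4.31 at 48 h and 129 ± 9.46 at 72 h. Its changes were 0.09 ± 0.06 and 0.39 ± 0.06. With the gene span trend removed both were also called at 48 h (0.22 for PLOD2 and 0.22 for P4HA2). P4HA1, more abundant than P4HA2 by mean FPKM at each time, had 125 ± 1.01 FPKM at 0 h, 113 ± 15.8 at 48 h and 139.7 ± 11.03 at 72 h. It was not called at either time, but was lower at 48 h at equal FPKM sums (-0.28, adjusted p = 0.0451). PLOD3 had 81.4 ± 2.74 FPKM at 0 h, 79.3 ± 3.54 at 48 h and 76.4 ± 2.14 at 72 h. It was not called as deposited, but was lower at both times at equal FPKM sums (-0.17 and -0.15, adjusted p = 0.0118 and 0.0281). SERPINH1, the chaperone that binds the folded procollagen helix in the endoplasmic reticulum, had 529, 517 and 512 FPKM at 0 h, 599, 604 and 542 at 48 h and 629.5, 659.7 and 567 at 72 h. It was called at 72 h (0.25 ± 0.07, adjusted p = 0.012, but 0.14 and not called under quantile normalization) and not at 48 h (0.16 ± 0.07, adjusted p = 0.0703). At 48 h it was called with the replicate number as a block (adjusted p = 0.0405), in a fit of 6 libraries, or without 48 h replicate 3 or 72 h replicate 3.

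At 72 h against 48 h, where 9.17% of all tested genes were higher, 12 of 28 tested proteases and 7 of 18 tested collagen genes were higher. Of the 3 tested inhibitors 0 were higher, a number too small to read against that share. Among the 12 proteases is ADAMTS5, which passed the filter through its 72 h libraries alone. In the list of other inhibitors 2 of 9 genes were higher, SERPINF1 (0.47 ± 0.05) and SERPING1 (0.39 ± 0.09). ANPEP had the largest difference of the 49, with 35.9, 36.6 and 38.7 FPKM at 72 h, against 18.9, 18.1 and 18.3 FPKM at 48 h. MMP1 (0.79 ± 0.08), MMP2 (0.60 ± 0.10), FAP (0.51 ± 0.08), LOXL2 (0.48 ± 0.07), ADAMTS7 (0.44 ± 0.07), PCOLCE (0.44 ± 0.07) and MMP14 (0.43 ± 0.05) were also higher at 72 h, with adjusted p between 0.00013 and 0.00161. The calls of ANPEP, of these 7 genes and of P4HA2, PLOD2, PLAUR and HTRA3 were kept under every alternative run, 12 of 22 calls. The other 10 calls were ADAM9, ADAMTS5, ADAMTS6, ADAMTS10, PLAT, HTRA1, LOX, LOXL1, LOXL3 and P4HA1, and each was lost under at least 1 alternative. ADAMTS5 lost its call under 13 of 19 alternatives, ADAMTS6, HTRA1 and P4HA1 under 10 of 20, and LOXL1 under 9 of 20. ADAM9 and LOXL3 lost theirs under 8, LOX under 5, ADAMTS10 under 3 and PLAT under 2 of 20. The number higher at 72 h than at 48 h was 11 in a fit of these 6 libraries alone, 12 without a filter, 11 without 48 h replicate 2 and 12 without 72 h replicate 1. Among all tested genes 1014 were higher as reported, and 634, 739 of 19679, 589 and 624 in these settings, in that order. The differences of ADAM9, LOX and P4HA1 were also much smaller without 48 h replicate 1, at 0.31, 0.29 and 0.19, where they were 0.57, 0.49 and 0.30 with it included.

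The libraries of a time differed most at 48 h for a few genes. The median coefficient of variation of the 49 genes was 3.3% at 0 h, 5.9% at 48 h and 6.6% at 72 h, beside 5.3%, 8.8% and 7.8% for all tested genes. It was highest for MMP16 at 48 h, at 37.0%. Replicate 2 of 72 h was the highest 72 h library for 28 of the 49 genes and the lowest for 10. Replicate 1 of 0 h was the highest 0 h library for 26 and the lowest for 11. In ADAM9, MMP16, LOX and P4HA1, 48 h replicate 1 was the lowest 48 h library and replicate 3 the highest, and in TIMP1 and MMP11 replicate 1 was the highest and replicate 3 the lowest. The FPKM sum was 563656, 543186 and 524992 in 48 h replicates 1, 2 and 3, and its part in these spreads was not tested.

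The other genes of these pathways, from lists made by function with earlier results of these data known, hold several with larger changes. Of 20 tested other proteases and their activators 11 were higher and 3 lower at 48 h, and again 11 and 3 at 72 h. That is 55% and 15% at both times, beside 27.6% and 22.4% of all tested genes at 48 h and 23.0% and 22.5% at 72 h. PRSS35, a secreted serine protease homologue, had 23.8, 23.6 and 23.7 FPKM at 0 h, 49.6, 58.6 and 59.3 at 48 h and 77.95, 79.2 and 85.97 at 72 h, with a change of 1.73 ± 0.07 at 72 h. DPP4, the membrane dipeptidase related to FAP, had 1.82, 1.34 and 1.18 FPKM at 0 h, 4.37, 4.79 and 4.46 at 48 h and 6.32, 6.59 and 6.35 at 72 h. Its changes were 1.19 ± 0.10 and 1.61 ± 0.10. Both separated the 3 times without overlap. The lysosomal cathepsins CTSB and CTSD were also higher at both times, at 0.18 ± 0.05 and 0.32 ± 0.08 at 48 h and 0.71 ± 0.05 and 0.73 ± 0.08 at 72 h. FURIN, which activates MMP14 and MMP11 precursors, was at 0.31 ± 0.06 and 0.16 ± 0.06, and MRC2, the receptor that takes up cut collagen, at 0.29 ± 0.07 and 0.47 ± 0.07.

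Of 9 tested genes of the list of other inhibitors 3 were higher and 3 lower at 48 h and likewise at 72 h, 33.3% each, beside 27.6% and 22.4% of all tested genes at 48 h and 23.0% and 22.5% at 72 h. The 3 higher were SERPING1, an inhibitor of complement proteases, CSTB, an inhibitor of cathepsins, and SERPINF1, a secreted serpin that binds collagen and is not known to inhibit proteases. SERPINF1 rose by 0.74 ± 0.05 and 1.22 ± 0.05, the highest changes in that list. The lowest changes in it were larger in size, at -1.32 at 48 h and -1.71 at 72 h. RECK, a membrane-anchored inhibitor of MMPs, had 4.21 ± 0.474 FPKM at 0 h, 4.13 ± 0.732 at 48 h and 4.53 ± 0.445 at 72 h and passed no test. Of 12 tested other collagen-modifying genes 5 were higher and 5 lower at 48 h, and 6 and 2 at 72 h. That is 41.7% each at 48 h and 50% and 16.7% at 72 h, beside the shares of all tested genes given for the inhibitors. P4HB, the partner subunit of the prolyl hydroxylases, was at 0.48 ± 0.08 and 0.30 ± 0.08. P3H2, a relative of P3H1, was lower at both times (-0.34 ± 0.08 and -0.85 ± 0.08).

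Of the 7 tested genes of fibrillar collagen chains, whose products these enzymes handle, 6 were lower and 0 higher at 48 h than at 0 h, and 3 lower and 0 higher at 72 h than at 0 h. The shares of all tested genes were 22.4% lower and 27.6% higher at 48 h, and 22.5% and 23.0% at 72 h. At 72 h against 48 h 3 of the 7 were higher and 0 lower, beside 9.17% and 16.3% of all tested genes. The 3 were COL11A1 (0.53 ± 0.11), COL5A2 (0.45 ± 0.08) and COL1A2 (0.21 ± 0.07). COL1A1 had 8407 ± 287 FPKM at 0 h, 7288 ± 234 at 48 h and 8196 ± 264 at 72 h. It was at -0.21 ± 0.06 at 48 h (adjusted p = 0.0164) and -0.04 ± 0.06 at 72 h (adjusted p = 0.649). COL1A2 had 5679.9 ± 67.9 FPKM at 0 h, 4276 ± 277 at 48 h and 4953 ± 273 at 72 h and was at -0.41 ± 0.07 and -0.20 ± 0.07. PCOLCE per COL1A1 transcript was 0.00746, 0.00764 and 0.00731 at 0 h, 0.0175, 0.015 and 0.0139 at 48 h and 0.0185, 0.0187 and 0.0186 at 72 h, with no overlap between 0 h and the later times.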

How the data were processed

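The 9 RNA libraries, 3 each at 0 h, 48 h and 72 h, were grouped by the submitters' labels. The labels' protocols state removal of ribosomal RNA and library construction with a NEBNext Ultra kit. The deposited values are FPKM made by the authors, as the file headers name them. Tools listed in the submitters' processing notes are RSEM 1.2.28, HISAT2 2.1.0, DESeq2 (no version) and featureCounts 2.0.2, and the build is Sscrofa11.1, with no role or order, and the use of strand in counting is not stated there. FPKM is scaled within a library, so a few abundant transcripts can shift the values of all others. It carries no counts, so the depth is unknown and no counting interval was computed.

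Of 30477 gene IDs 14864 were paired with a symbol, and symbols were looked up in RefSeq's Sscrofa11.1 gene table for coordinates. Values were taken as log2(FPKM + 1), which understates changes of low genes. The 11063 genes that reached an FPKM of 1 in 3 or more libraries were fitted together by limma 3.58.1 under R 4.3.3, with time as the factor and a prior variance that follows the mean level. Tests were two-sided, with Benjamini-Hochberg adjustment over all tested genes and a threshold of 0.05. The SE of a log2 change had a median of 0.09 over tested genes. The script was tested on simulated data. Replicates are called biological by the submitters, and nothing says which cultures they came from.

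Alternatives were another pseudocount, filter and scaling, library weights, the replicate number as a block, fits of 6 libraries and leaving out each library. Removal of a trend on gene span (9310 tested genes have a span) was added after seeing the data. For each role class, all 9 values were given for up to 4 called genes with the largest change and no overlap between groups, and for TIMP1, TIMP3, TIMP4, MMP2 and MMP14. Group means were given for the others. The members and lists were chosen with earlier results of these data known. Genes outside the list, and values of PLAUR, HTRA3 and others beyond that rule, were picked with their values in view.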

Additional observations from a re-analysis of the deposited data

Results flagged for a closer look

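A difference between the effects at 72 h and at 48 h, tested in limma as 72 h against 48 h, set apart 22 of the 49 tested genes. In that comparison 25.4% of all tested genes were called. Only 12 of the 22 calls were kept under every alternative run. The 22 include ADAMTS5, which passed the filter through its 72 h libraries alone. The values here are log2 differences, 72 h minus 48 h.

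Among proteases, the difference was 0.97 for ANPEP, 0.79 for MMP1, 0.60 for MMP2, 0.57 for ADAM9, 0.51 for FAP, 0.44 for ADAMTS7 and 0.43 for MMP14. It was smaller for ADAMTS10 at 0.33, ADAMTS5 at 0.32, ADAMTS6 at 0.31, PLAT at 0.25 and HTRA1 at 0.19. HTRA3 at -0.56 and PLAUR at -0.39 were higher at 48 h than at either other time. Of the collagen genes, LOX was at 0.49, LOXL2 at 0.48, PCOLCE at 0.44, PLOD2 at 0.33, P4HA2 at 0.31, P4HA1 at 0.30 and LOXL1 at 0.25. LOXL3, at -0.20, was lower at each later time. ADAM9, PLAT and ADAMTS6 were below 0 h at 48 h and nearer to 0 h at 72 h, with changes against 0 h of -0.30, -0.38 and -0.10 at 72 h.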

How the results depend on the processing

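No called change of a tested gene turned its direction under any alternative run. Of the calls as reported, 28 of 34 at 48 h against 0 h, 31 of 34 at 72 h against 0 h and 12 of 22 at 72 h against 48 h were kept under every alternative. The counts higher and lower against 0 h stayed within 1.5 times throughout. At 72 h against 48 h, the 19 higher became 12 without a filter and 11 in a fit of these 6 libraries, and 11 to 19 with 1 library left out, lowest without 48 h replicate 2 and 12 without 72 h replicate 1. Among all tested genes the number higher went from 1014 to 739 without a filter, 634 in that fit, and 589 to 1497 with 1 library left out. The 3 lower became 6 with library weights, whose estimation did not converge and gave 48 h replicate 2 a weight of 21.8 and the others 0.268 to 1.35. With these weights 3348 of all tested genes were lower, in place of 1800. Correlations of deviations across genes ran from -0.0709 to 0.193 for same-numbered libraries and from -0.182 to 0.174 for differently numbered ones. Whether the replicate numbers pair the libraries is not settled by these values. With the replicate block the counts higher and lower were 20 and 16 at 48 h, 24 and 10 at 72 h, and 18 and 4 at 72 h against 48 h. At equal FPKM sums the share of calls of all genes that were higher was 34.7% at 48 h in place of 55.2%, and 55.9% at 72 h against 48 h in place of 36.0%. The read depth is unknown, so what it limits could not be measured.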

Other observations

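Some of these genes share a chromosome region in Sscrofa11.1, by the RefSeq coordinates. ADAMTS1 (chromosome 13, 190277175 to 190285957) and ADAMTS5 (chromosome 13, 190353019 to 190413110) were both higher at 72 h than at 0 h. However, ADAMTS5 passed the filter through its 72 h libraries alone. MMP1 and MMP13 (chromosome 9, 33549003 to 33616700) belong to the MMP cluster of chromosome 9. MMP1 averaged 35.1 ± 3.96 FPKM at 72 h (SD, n = 3), while MMP13 stayed at or below 0.1 FPKM in all 9 libraries. PCOLCE (chromosome 3, 8523455 to 8528749) and PLOD3 (chromosome 3, 8911787 to 8919525) are on chromosome 3, and PCOLCE rose while PLOD3 was not called. LOXL2 (chromosome 14, 7435861 to 7540699) and BMP1 (chromosome 14, 6443773 to 6489066) are on chromosome 14, where LOXL2 was higher and BMP1 lower at 72 h. SERPINH1 (chromosome 9, 9782939 to 9794485) and P4HA3 (chromosome 9, 8627365 to 8681804), on chromosome 9, were both higher at 72 h.

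The balance of catalytic subunits also differed between times. The ratio of P4HA1 to P4HA2 was 1.23, 1.29 and 1.29 at 0 h, 0.878, 1.14 and 1.25 at 48 h and 1.08, 1.09 and 1.06 at 72 h, with 72 h below 0 h in every library and 48 h reaching from below 72 h into the 0 h range. The ratio of LOXL2 to LOX was 1.45, 1.44 and 1.297 at 0 h, 2.26, 1.84 and 1.49 at 48 h and 1.74, 2.08 and 1.65 at 72 h, higher in every later library than in every 0 h library.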
